A study of Mus musculus with 4 samples.

Results

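The genes described here encode the kinetochore and the spindle checkpoint. With earlier results of these data known, 37 of them were chosen by name. They cover the SKA, NDC80 and MIS12 complexes, the constitutive centromere network, and the CENP-A nucleosome and its loading factors. They also cover the outer kinetochore and corona, the checkpoint proteins and the chromosomal passenger complex. Of the 37, 35 were read from a probe set that names 1 gene, out of 22180 genes so read on the array. Mis12 and Oip5 were represented only by probe sets that also name a neighbouring gene, and no value is given for them. All 35 measured genes lay above the floor used for the whole table, a log2 value of 5.475, on every array, with values between 5.72 and 10.39, so none entered through a single high array.

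Messenger RNA was measured on 4 arrays, 1 for each of 4 groups: AMKO mice at day 8 after 5FU, AMKO mice at Basal (day 0), Ctrl mice at day 8 after 5FU and Ctrl mice at Basal. The cells were LSK cells sorted from bone marrow, which lack lineage markers and carry Sca-1 and c-Kit, and which hold hematopoietic stem cells and early progenitors. Mice were C57/B6 males aged 4 months, and 5FU (5-fluorouracil, a pyrimidine analog that kills cycling cells) was given once at 150 mg/kg. AMKO is not spelled out in the labels and is used as a genotype name, so the deleted gene, the cells in which it is deleted and the level of its transcript were not checked. The labels do not say whether an array holds RNA of 1 mouse or of several, and with 1 array per group no value carries a replicate error.

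The kinetochore is the protein assembly that joins a chromosome's centromere to spindle microtubules. Centromeres are marked by the histone variant CENP-A, an inner network of CENP proteins sits on it, and the outer KMN network (KNL1, MIS12 and NDC80) holds the microtubule. Until every chromosome is attached, checkpoint proteins gathered at kinetochores delay anaphase, and many of these genes are transcribed mainly in late S, G2 and M phase, so that resting stem cells hold little of their RNA. In RNA of a sorted population, a larger share of cells in mitosis and more of the RNA in each cell cannot be told apart.

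The sorted identity was read from fixed markers. Kit had log2 values of 11.16 in AMKO and 11.08 in Ctrl after 5FU, against 11.87 in AMKO and 11.84 in Ctrl at Basal, and all 7 measured genes of the 8 stem and progenitor markers lay above the floor on every array, with median 5FU minus Basal differences of -0.29 in AMKO and -0.49 in Ctrl. These markers differed in both directions: in AMKO and in Ctrl, Flt3 differed by 0.52 and 1.57, Cd34 by 0.64 and 1.03, and Procr by -0.70 and -1.64. None of the 7 was past 2-fold in AMKO, and in Ctrl 2 were at least 2-fold higher and 1 at least 2-fold lower. The kinetochore genes were thus read in sorted cells whose stem and progenitor markers also differed after 5FU, and the part of that shift in the results was not tested. Ly6a, which encodes Sca-1, had no probe set naming it alone. The Ctrl 5FU array stood apart from the other 3: its 10 mature neutrophil genes lay between 9.85 and 12.29, against 4.13 to 7.04 in AMKO after 5FU, 3.79 to 5.92 in AMKO at Basal and 3.49 to 5.83 in Ctrl at Basal. All 10 were at least 2-fold higher after 5FU in Ctrl, where 5.02% of all genes were. In AMKO 2 of the 10 were, where 4.69% of all genes were. Median 5FU minus Basal differences in AMKO and in Ctrl were 0.11 and 5.935 for the neutrophil list, 0.065 and 3.905 for 8 granulocyte-monocyte progenitor genes, and 0.07 and 2.93 for 8 B-lineage genes. For 5 erythroid genes they were 0.02 and 0.95, for 6 macrophage genes 0.355 and 1.23, and for 3 T cell genes -0.05 and 0.70. Among 7 measured lineage genes, whose medians were 0.15 and 0.53, the myeloid integrin Itgam had 6.40 in AMKO and 9.93 in Ctrl after 5FU, against 6.20 in AMKO and 5.61 in Ctrl at Basal. Klrb1c, of the same 7, went the other way, with differences of -0.81 in AMKO and -0.93 in Ctrl. Because the Ctrl 5FU array stood apart, array values and differences are given for AMKO and for Ctrl apart. The averaged limma effects quoted further on include the Ctrl 5FU array. The source of the higher marker RNA on that array, and its part in the Ctrl values, was not tested.

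After 5FU nearly all of the 35 measured genes were higher in LSK cells of both genotypes. Their list was chosen with earlier results of these data known, so shares over all genes are given as a description. The 30 measured kinetochore and checkpoint genes outside the list had smaller medians, 0.86 in AMKO and 0.84 in Ctrl. The median log2 difference over the 35 genes was 1.30 in AMKO and 1.26 in Ctrl (2.46-fold and 2.39-fold), against 0.03 and 0.01 over all 14061 genes kept. A short cell cycle list had close medians, 1.26 in AMKO and 1.23 in Ctrl. Its 5 measured genes were Mki67, Top2a, Cdk1, Pcna and Mcm5. The size of the median difference is therefore not particular to the kinetochore and checkpoint genes. In AMKO, 26 of 35 were at least 2-fold higher, where 4.69% of all genes were, and in Ctrl 22 of 35 were, where 5.02% of all genes were. In both genotypes, 21 genes were at least 2-fold higher, against 1.96% of all genes, and 0 members were at least 2-fold lower in either genotype, against 3.55% of all genes in AMKO and 4.46% in Ctrl. Both 5FU arrays lay above both Basal arrays for 34 of 35 genes, the exception being Cenpt, and for 32% of all genes.

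**Figure D1:**
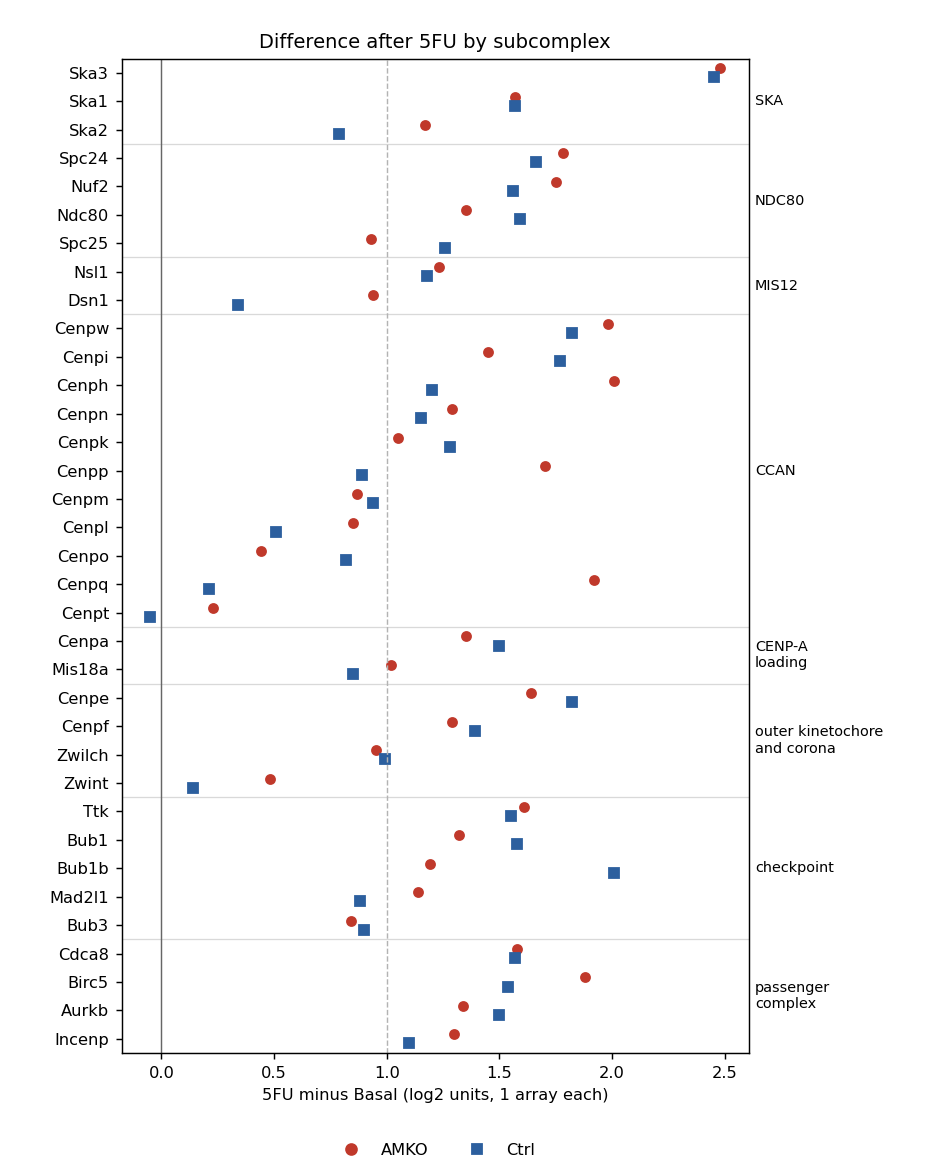
Log2 difference, 5FU minus Basal, on the horizontal axis for each of the 35 measured genes, grouped by subcomplex and ordered within it by the smaller of both differences (circles AMKO, squares Ctrl, 1 array per group, no error bars; the dashed line marks 2-fold). Ska3 lies farthest right in both genotypes, at 2.48 and 2.45, and Cenpt lies nearest 0, at 0.23 and -0.05.

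The effect of 5FU averaged over both genotypes was fitted with limma on all 4 arrays and all 14061 genes. With 1 residual degree of freedom for each gene, from the disagreement of AMKO and Ctrl in their 5FU responses, and 2.62 prior degrees of freedom from the variance trend over all genes, its errors come largely from that trend and its p-values do not rest on replicate mice. It called 0 genes at an adjusted p of 0.05, and the lowest adjusted p of any member was 0.0697. At an unadjusted p of 0.05 it had 32 of 35 members, all higher after 5FU, where 27.8% of all genes passed in either direction and 15.7% were higher. Cenpq, Cenpt and Zwint were the members above that level. Without the Ctrl 5FU array only 1 array after 5FU is left, so nothing is concluded from that fit. With robust variance estimation the model of all 4 arrays called 29 of 35 members, all higher, where 5.29% of all genes were called higher. Dsn1, Cenpl, Cenpo, Cenpq, Cenpt and Zwint were not called. The call for single genes therefore depends on how the variance is estimated, and the differences themselves are the same in both fits.

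Promoter sequence is shown for 5 genes. Ska3 was the member with the largest difference, and Ttk and Cdca8 had the largest smaller difference among checkpoint and passenger genes. Cenpw and Cenpt encode partners in 1 dimer and stood at opposite ends of the listed members of their network. The windows, from RefSeq on GRCm38.p6, run from 250 bases before to 50 bases after the annotated gene start and are written along the gene's own strand: Ska3 chr14:57826114-57826413 (minus), Ttk chr9:83834439-83834738 (plus), Cdca8 chr4:124936868-124937167 (minus), Cenpw chr10:30200491-30200790 (minus) and Cenpt chr8:105851959-105852258 (minus). Capitals mark letters of 3 motifs searched on both strands: the cell cycle homology region (read as TTTGAA and also as TTCGAA), an element of promoters active in G2 and M phase, the NF-Y box (CCAAT), and E2F letters (read as TTCCCGC, with the further forms TTGGCGC, and also TTCGCGC, and lastly TTGCCGC).
Ska3: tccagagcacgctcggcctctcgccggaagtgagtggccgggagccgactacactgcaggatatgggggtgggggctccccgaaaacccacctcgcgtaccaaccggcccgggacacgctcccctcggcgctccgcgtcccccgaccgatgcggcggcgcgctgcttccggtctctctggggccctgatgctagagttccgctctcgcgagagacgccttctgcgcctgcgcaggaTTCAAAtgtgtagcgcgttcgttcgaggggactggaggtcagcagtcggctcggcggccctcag
Ttk: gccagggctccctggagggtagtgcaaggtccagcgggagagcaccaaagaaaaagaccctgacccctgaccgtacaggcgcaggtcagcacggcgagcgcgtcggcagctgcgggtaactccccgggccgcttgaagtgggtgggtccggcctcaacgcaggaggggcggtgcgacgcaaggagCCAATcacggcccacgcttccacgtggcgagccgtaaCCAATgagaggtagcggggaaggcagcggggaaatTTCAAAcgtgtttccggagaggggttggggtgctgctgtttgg
Cdca8: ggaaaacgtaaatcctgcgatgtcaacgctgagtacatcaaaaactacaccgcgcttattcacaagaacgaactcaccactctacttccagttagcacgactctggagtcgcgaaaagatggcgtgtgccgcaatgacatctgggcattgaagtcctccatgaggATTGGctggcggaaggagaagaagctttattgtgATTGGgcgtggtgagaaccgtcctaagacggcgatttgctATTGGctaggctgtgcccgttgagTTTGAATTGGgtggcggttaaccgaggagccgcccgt
Cenpw: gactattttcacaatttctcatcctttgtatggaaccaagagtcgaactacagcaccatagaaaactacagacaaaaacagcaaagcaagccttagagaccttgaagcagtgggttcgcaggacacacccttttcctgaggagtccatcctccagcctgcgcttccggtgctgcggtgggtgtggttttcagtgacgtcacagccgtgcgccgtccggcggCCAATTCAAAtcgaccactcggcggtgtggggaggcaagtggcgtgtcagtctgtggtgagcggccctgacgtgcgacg
Cenpt: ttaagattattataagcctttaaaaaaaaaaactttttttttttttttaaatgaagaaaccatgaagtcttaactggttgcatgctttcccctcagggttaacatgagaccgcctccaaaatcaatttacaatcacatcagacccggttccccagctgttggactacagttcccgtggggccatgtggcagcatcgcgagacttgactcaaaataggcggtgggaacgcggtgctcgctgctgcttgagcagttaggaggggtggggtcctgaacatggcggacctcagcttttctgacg
A homology region on the other strand appears as TTCAAA, and an NF-Y box as ATTGG. In Ska3 the capitals are a single such homology region match, whose first base lies 14 bases before the gene start. Ttk has 1 homology region match, beginning at base 8 of the gene, behind 2 NF-Y boxes, and Cdca8 has 1 among 4 NF-Y boxes. In Cenpw and in Cdca8 a homology region match and an NF-Y box share 1 base. The Cenpt window holds 0 matches to any of the 3 motifs.

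Windows were listed for 31 of the 37 genes, 34 windows in all, and not for Aurkb, Incenp, Nsl1, Ska1, Spc24 and Zwilch. The homology region letters were in 17 of 34 windows (50%), against 19.2% of all 32851 windows and 13.9% of the 13816 windows of genes kept on the array. NF-Y boxes were in 24 windows (70.6%), against 37.4% and 37% of those backgrounds, and E2F letters in 9 (26.5%), against 9.57% and 15.3%. Both a homology region match and an NF-Y box were in 14 windows (41.2%), against 7.52% of all windows and 5.64% of those of kept genes. Matches of different motifs overlapped in 3 places, those already named in Cenpw and Cdca8 and, in Ska2, an E2F match that shares 4 bases with an NF-Y box. Such matches are a description of letters and do not show that a factor binds.

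Whether members with a motif differed more after 5FU was described over the 29 measured members that have a window. For the 15 with homology region letters and the 14 without, median differences were 1.29 and 1.31 in AMKO and 1.5 and 0.885 in Ctrl. In AMKO these medians were therefore close, and in Ctrl the genes with the letters had the larger one. For the 19 members with an NF-Y box and the 10 without, the medians were 1.29 and 1.245 in AMKO and 1.28 and 0.885 in Ctrl. The 9 members with E2F letters had smaller medians than the 20 without in both genotypes, 1.02 and 1.40 in AMKO and 0.85 and 1.545 in Ctrl. Birc5, Nuf2, Cenpp, Mad2l1 and Cenpt had 0 matches, and among them Birc5 and Nuf2 were more than 2-fold higher in both genotypes.

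**Figure D2:**
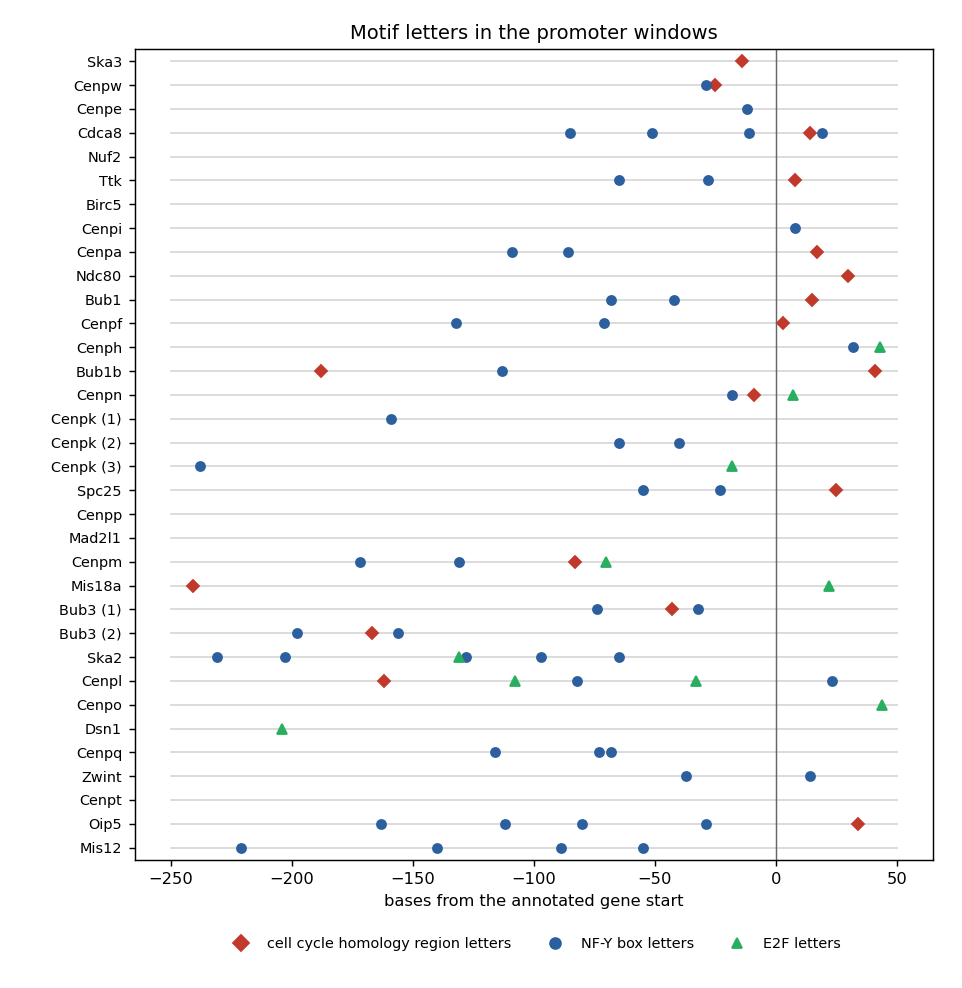
Position of each motif match, by its first base, in bases from the annotated gene start (vertical line at 0), for the 34 promoter windows of 31 genes, ordered from top to bottom by the smaller of both 5FU differences, with the unmeasured Oip5 and Mis12 last. Diamonds are homology region letters, circles NF-Y boxes and triangles E2F letters. By window, 14 of 18 homology region matches begin no more than 100 bases before the start or after it. The same Bub3 site is counted at -43 and at -167, because its windows overlap.

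The SKA complex, which helps the kinetochore follow shortening microtubules, held the member with the largest difference. Ska3, its subunit with a long flexible tail, had log2 values of 8.60 in AMKO and 8.48 in Ctrl after 5FU, against 6.12 in AMKO and 6.03 in Ctrl at Basal. Both 5FU values lay more than 2 log2 units above both Basal values, and the folds were 5.58 in AMKO and 5.46 in Ctrl. The averaged effect was 2.46 with a standard error of 0.139 in the limma fit (adjusted p = 0.0697). Ska3 ranked 19th of 14061 genes by the AMKO difference and 135th by the Ctrl difference. Ska1, the microtubule-binding subunit, differed by 1.57 in each genotype. Ska2, the subunit that joins the others, had 7.26 in AMKO and 7.67 in Ctrl after 5FU, against 6.09 in AMKO and 6.88 in Ctrl at Basal, so that it was 2.25-fold higher in AMKO and 1.73-fold higher in Ctrl. A second Ska2 probe set lay under the floor on all 4 arrays and gave differences of -0.27 in AMKO and -0.28 in Ctrl, so the Ska2 values depend on the probe set.

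**Figure D3:**
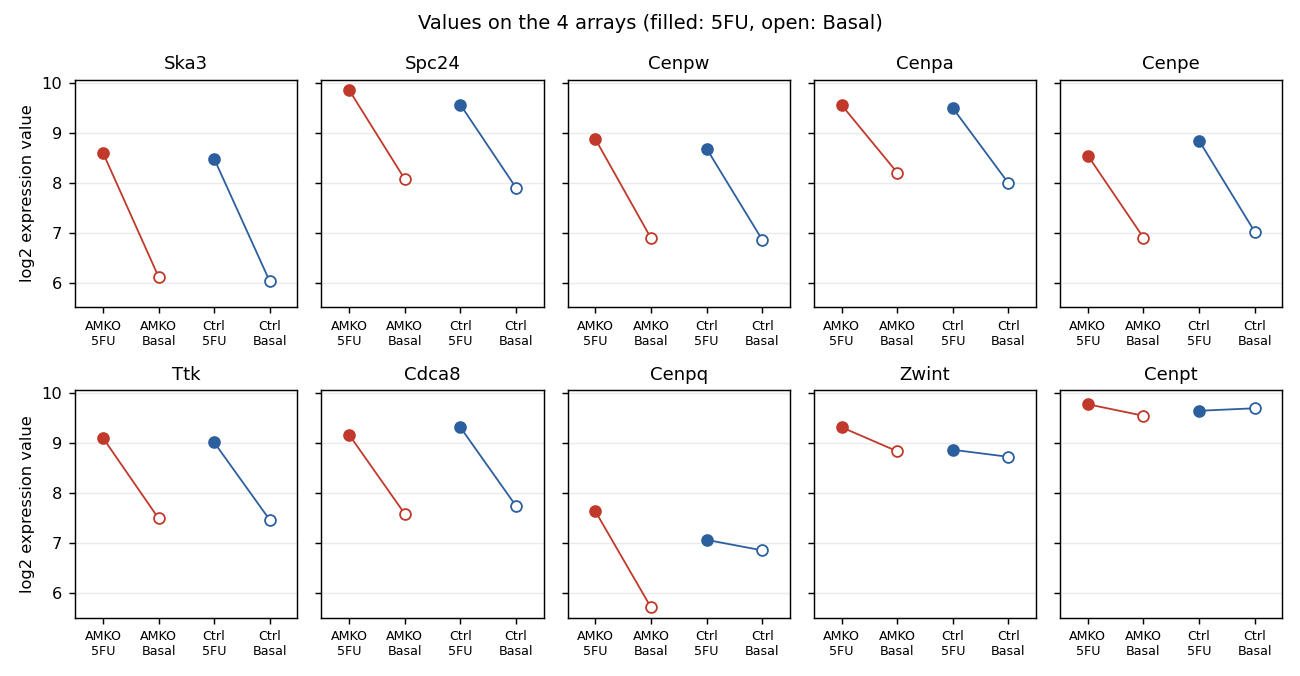
Log2 expression value on the vertical axis for 10 genes on each of the 4 arrays (red AMKO, blue Ctrl, filled 5FU, open Basal; a line joins the arrays of 1 genotype; levels are not compared between genes). Ska3, Spc24, Cenpw, Cenpa, Cenpe, Ttk and Cdca8 are higher on both 5FU arrays by more than 1 log2 unit. Cenpq has a low value of 5.72 on the AMKO Basal array alone. Zwint is higher after 5FU by 0.48 in AMKO and 0.14 in Ctrl, and Cenpt is nearly level.

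The 4 NDC80 complex genes were higher by 0.93 to 1.78 in AMKO and by 1.26 to 1.66 in Ctrl. Ndc80 and Nuf2 form the end of the rod that grips the microtubule, and Spc24 and Spc25 the end that docks on the inner kinetochore. Spc24 had 9.85 in AMKO and 9.56 in Ctrl after 5FU, against 8.07 in AMKO and 7.90 in Ctrl at Basal, folds of 3.43 and 3.16. Its averaged effect was 1.72 with a standard error of 0.125 (limma adjusted p = 0.0697). Nuf2 differed by 1.75 in AMKO and 1.56 in Ctrl, and Ndc80 by 1.35 and 1.59. Spc25 had 8.25 in AMKO and 8.21 in Ctrl after 5FU, against 7.32 in AMKO and 6.95 in Ctrl at Basal. The 5FU values of Spc25 were nearly equal and its Ctrl Basal value was the lower one, so it was 1.91-fold higher in AMKO and 2.39-fold in Ctrl. The medians of the complex were 1.55 in AMKO and 1.575 in Ctrl.

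The MIS12 complex bridges the inner network and NDC80, and 2 of its 3 listed genes were measured. Nsl1 had 7.51 in AMKO and 7.12 in Ctrl after 5FU, against 6.28 in AMKO and 5.94 in Ctrl at Basal, and was 2.35-fold and 2.27-fold higher. Dsn1, the subunit through which Aurora B kinase regulates assembly at the centromere, had 7.21 in AMKO and 6.91 in Ctrl after 5FU, against 6.27 in AMKO and 6.57 in Ctrl at Basal. Its 5FU values still lay above both Basal values, but the difference was 0.94 in AMKO and 0.34 in Ctrl.

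The constitutive centromere network, which stays on centromeres throughout the cell cycle, held members with differences from near 0 to about 2 log2 units. Of its 11 genes, 7 in AMKO and 5 in Ctrl were at least 2-fold higher, and the medians were 1.29 and 0.94, with ranges of 0.23 to 2.01 in AMKO and -0.05 to 1.82 in Ctrl. CENP-T and CENP-W form a histone-fold dimer that contacts DNA, yet their genes differed. Cenpw had 8.87 in AMKO and 8.68 in Ctrl after 5FU, against 6.89 in AMKO and 6.86 in Ctrl at Basal, and was 3.94-fold and 3.53-fold higher. Its averaged effect was 1.90 with a standard error of 0.139 (limma adjusted p = 0.0697). Cenpt had 9.78 in AMKO and 9.65 in Ctrl after 5FU, against 9.55 in AMKO and 9.70 in Ctrl at Basal. These 4 values overlap between 5FU and Basal, and the averaged effect was 0.09 with a standard error of 0.133 (limma adjusted p = 0.701).

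Within the same network, the genes of the module with CENP-H, CENP-I, CENP-K and CENP-M were higher throughout. Differences in AMKO and in Ctrl were 2.01 and 1.20 for Cenph, 1.45 and 1.77 for Cenpi, 1.05 and 1.28 for Cenpk, and 0.87 and 0.94 for Cenpm. CENP-N, which binds the CENP-A nucleosome, and its partner CENP-L had differences of 1.29 and 1.15 for Cenpn and 0.85 and 0.51 for Cenpl. These 6 genes were thus higher after 5FU in each genotype, by 0.51 at least.

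The module of CENP-O, CENP-P and CENP-Q, which connects to microtubules and to Polo-like kinase, held the largest gap between the genotypes, in Cenpq. Cenpq had 7.64 in AMKO and 7.07 in Ctrl after 5FU, against 5.72 in AMKO and 6.86 in Ctrl at Basal. The AMKO Basal value is the lowest of any member on any array, and the difference was 1.92 in AMKO and 0.21 in Ctrl. Cenpp had 7.50 in AMKO and 7.24 in Ctrl after 5FU, against 5.80 in AMKO and 6.35 in Ctrl at Basal, which made it 3.25-fold higher in AMKO and 1.85-fold in Ctrl. Cenpo went the other way in size, with differences of 0.44 in AMKO and 0.82 in Ctrl. With 1 array per group, the difference between the genotypes' responses has no test.

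Cenpa, the gene of the centromeric histone H3 variant, had 9.55 in AMKO and 9.49 in Ctrl after 5FU, against 8.20 in AMKO and 7.99 in Ctrl at Basal, folds of 2.55 and 2.83. Its averaged effect was 1.42 with a standard error of 0.127 (limma adjusted p = 0.0697). Mis18a, which licenses centromeres for new CENP-A after mitosis, had 9.42 in AMKO and 9.64 in Ctrl after 5FU, against 8.40 in AMKO and 8.79 in Ctrl at Basal. It was 2.03-fold higher in AMKO and 1.80-fold in Ctrl, on either side of the 2-fold line.

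In the outer kinetochore and corona, Cenpe, a kinesin that carries chromosomes to the spindle equator, had 8.54 in AMKO and 8.84 in Ctrl after 5FU, against 6.90 in AMKO and 7.02 in Ctrl at Basal. It was 3.12-fold and 3.53-fold higher, with an averaged effect of 1.73 and a standard error of 0.141 (limma adjusted p = 0.0697). Cenpf, a large coiled-coil protein of the corona, differed by 1.29 in AMKO and 1.39 in Ctrl, and Zwilch, a subunit of the complex that recruits dynein, by 0.95 and 0.99. Zwint, the partner of KNL1, had 9.32 in AMKO and 8.87 in Ctrl after 5FU, against 8.84 in AMKO and 8.73 in Ctrl at Basal. Both of its 5FU values exceeded both Basal values, by 0.03 at the closest pair, and its averaged effect was 0.31 with a standard error of 0.149 (limma adjusted p = 0.277).

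All 5 checkpoint genes were higher after 5FU, by 0.84 to 1.61 in AMKO and by 0.88 to 2.01 in Ctrl, and 3 of them were at least 2-fold higher in both genotypes. Ttk, the kinase that starts checkpoint signalling, had 9.11 in AMKO and 9.02 in Ctrl after 5FU, against 7.50 in AMKO and 7.47 in Ctrl at Basal, folds of 3.05 and 2.93. Bub1, a kinase that also recruits shugoshin, differed by 1.32 in AMKO and 1.58 in Ctrl. Bub1b, whose protein holds the anaphase-promoting complex in check, had 8.81 in AMKO and 8.78 in Ctrl after 5FU, against 7.62 in AMKO and 6.77 in Ctrl at Basal. Its 5FU values were nearly equal, and with the lower Ctrl Basal value its folds were 2.28 in AMKO and 4.03 in Ctrl. Mad2l1, which binds and sequesters Cdc20, had 10.39 in AMKO and 10.18 in Ctrl after 5FU, against 9.25 in AMKO and 9.30 in Ctrl at Basal, and was 2.20-fold and 1.84-fold higher. Bub3, which brings Bub1 and Bub1b to KNL1, had 9.86 in AMKO and 9.96 in Ctrl after 5FU, against 9.02 in AMKO and 9.06 in Ctrl at Basal, folds of 1.79 and 1.87.

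The chromosomal passenger complex, which corrects faulty attachments, had 4 of 4 genes at least 2-fold higher in both genotypes. With arrays centred on their medians this also held for the 4 NDC80 genes, Spc25 then differing by 1.04 in AMKO and 1.3 in Ctrl. Cdca8 (borealin) had 9.17 in AMKO and 9.32 in Ctrl after 5FU, against 7.59 in AMKO and 7.75 in Ctrl at Basal, folds of 2.99 and 2.97. Birc5 (survivin), which reads a mark on histone H3 at the centromere, differed by 1.88 in AMKO and 1.54 in Ctrl, and the kinase gene Aurkb by 1.34 and 1.5. Incenp, the scaffold, had 9.15 in AMKO and 9.04 in Ctrl after 5FU, against 7.85 in AMKO and 7.94 in Ctrl at Basal, and was 2.46-fold and 2.14-fold higher. Group medians in AMKO and in Ctrl were 1.46 and 1.52 for the passenger complex and 1.57 in each for SKA. They were 1.19 and 1.55 for checkpoint genes, 1.12 and 1.19 for the outer kinetochore and corona, 1.185 and 1.175 for CENP-A and its loading, and 1.085 and 0.76 for MIS12. These medians cover 2 to 11 genes each, and differences between the groups were not tested.

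How alike both genotypes responded was described over the 35 genes, where no array enters both differences. Pearson's r between the AMKO and Ctrl differences was 0.659 and Spearman's rho 0.635 across genes, which are not independent, against 0.566 and 0.621 across all genes kept. The differences lay within 0.25 of each other for 20 of 35 genes. Without its sign, the median gap was 0.2, near the 0.26 over all genes, so this closeness is not particular to these genes. With its sign, the median gap, AMKO minus Ctrl, was 0.05, the same as over all genes. The gap ranged from -0.82 for Bub1b to 1.71 for Cenpq. At least 2-fold higher in AMKO alone were Ska2, Cenpp, Cenpq, Mis18a and Mad2l1, and in Ctrl alone Spc25.

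**Figure D4:**
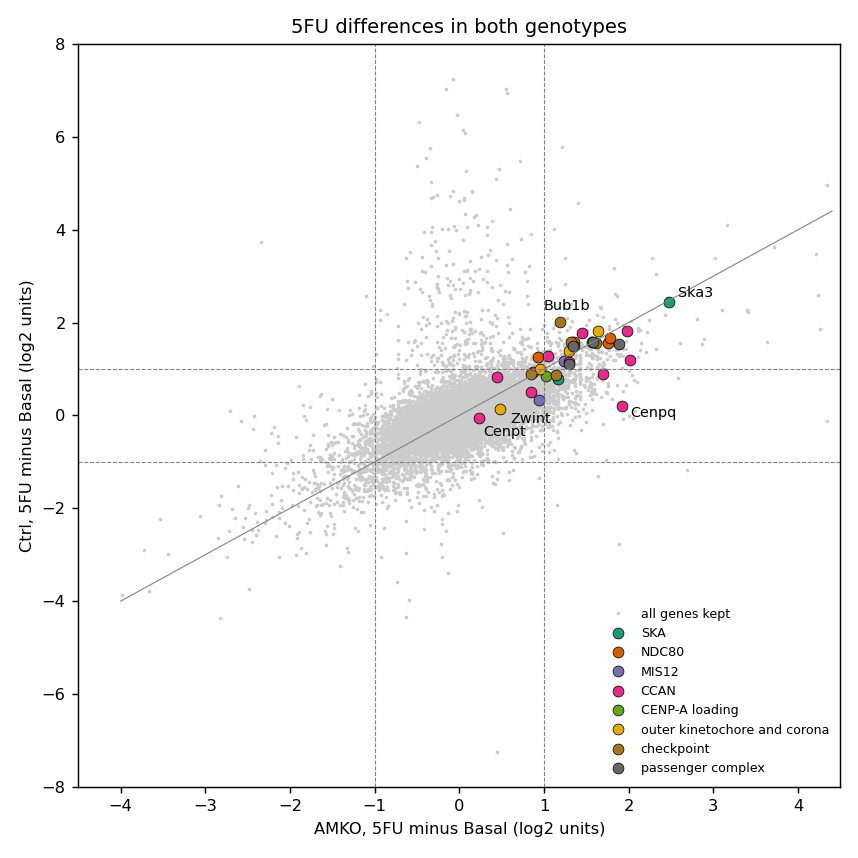
Log2 difference, 5FU minus Basal, in AMKO (horizontal axis) and in Ctrl (vertical axis) for all 14061 genes kept (grey) and the 35 members (coloured by subcomplex). Dashed lines mark 2-fold and the solid line equal differences; 21 members lie past 2-fold in both genotypes, and Cenpq lies far to the right of the line at 1.92 and 0.21.

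The comparison of AMKO with Ctrl gave shares near those over all genes, and nothing particular to these genes is read from it. After 5FU, 0 of 35 genes were at least 2-fold higher or lower in AMKO, where 0.74% of all genes were higher and 2.63% lower, and the AMKO minus Ctrl differences ran from -0.41 for Ska2 to 0.57 for Cenpq, with a median of 0.09. At Basal, 1 gene, Cenpq, was at least 2-fold lower in AMKO (-1.14) and 0 were higher, where 0.697% of all genes were lower and 0.228% higher. The other Basal differences ran from -0.79 for Ska2 to 0.85 for Bub1b, with a median of 0.03 over the 35. Ska2, by the probe set used, was lower in AMKO at both times, and Cenpn was higher at both, by 0.56 after 5FU and 0.42 at Basal. The second Ska2 probe set, under the floor on every array, went the other way. It had 4.48 in AMKO and 4.34 in Ctrl after 5FU, and 4.75 in AMKO and 4.62 in Ctrl at Basal.

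**Figure D5:**
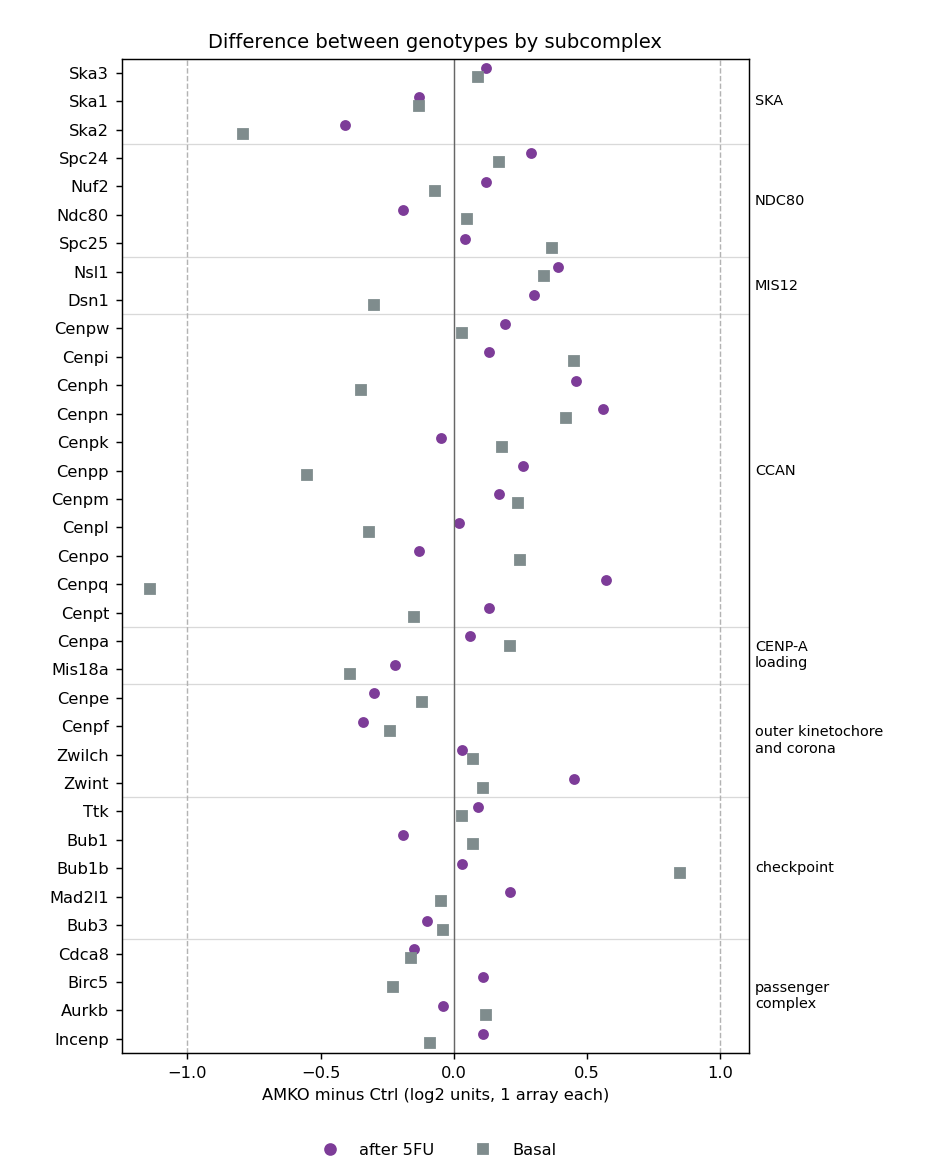
Log2 difference, AMKO minus Ctrl, on the horizontal axis for each of the 35 measured genes, grouped by subcomplex (circles after 5FU, squares at Basal, 1 array per group, no error bars; dashed lines mark 2-fold). All circles lie between -0.41 and 0.57, and the Basal value of Cenpq at -1.14 is the only point past a dashed line.

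A further 33 kinetochore and checkpoint genes outside the 37 were listed, of which 30 were measured. Their median difference was 0.86 in AMKO and 0.84 in Ctrl. In each genotype 12 of 30 were at least 2-fold higher, against 4.69% of all genes in AMKO and 5.02% in Ctrl. In both genotypes 9 were, against 1.96% of all genes. At least 2-fold lower were 0 of 30, which is near the 3.55% of all genes in AMKO and 4.46% in Ctrl. The highest by the smaller difference were Plk1, the Polo-like kinase (1.51 in AMKO and 1.82 in Ctrl), Nek2, a centrosomal kinase (1.73 and 1.51), Knl1, the platform for Bub proteins (1.97 and 1.44), and Sgo1, the shugoshin that protects centromeric cohesion (1.86 and 1.33). The lowest were Dynlt3, a dynein light chain, at -0.26 and -0.53, and Cenpx, which pairs with CENP-S, at 0.22 and -0.37. The 5 measured genes of a short cell cycle list had medians of 1.26 in AMKO and 1.23 in Ctrl, and 4 housekeeping genes had medians of 0.445 and 0.43. Among the housekeeping genes Hprt stood out, with differences of 1.55 in AMKO and 0.62 in Ctrl, and the other 3 lay between 0.18 and 0.69 in both genotypes.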

How the data were processed

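Expression was measured on 4 Affymetrix arrays, 1 per group. The authors deposited 1 value per probe set and array, taken to be log2 from their range of 1.99 to 13.43. Which background correction and normalization preceded deposit is not given in the sources used here. Array medians were 5.44 (AMKO 5FU), 5.55 (AMKO Basal), 5.43 (Ctrl 5FU) and 5.47 (Ctrl Basal), and values were used without rescaling. Arrays have no read depth, and their number limits the precision.

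Of 34472 probe sets, 23521 named 1 gene, 1814 several and 9137 none in the platform annotation, and 23328 symbols were updated by Entrez identifier through a RefSeq table of GRCm38.p6. The probe set with the highest mean stood for a gene. Genes whose highest value reached the median of all values (5.475) were kept, 14061 of 22180. Pairs of arrays were compared by log2 differences and counts past 2-fold, without a test. The averaged 5FU effect was fitted with limma 3.58.1 in R 4.3.3 (additive terms for genotype and treatment, intensity trend), with two-sided p-values adjusted by the Benjamini-Hochberg method over all genes kept. The fit was also run on simulated arrays with known changes, and the outcome of that run is not given here. Promoter motifs were matched by letters on both strands.

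Members, lists and tests were chosen with earlier results of these data known. Named genes are the members with the largest and the smallest smaller difference in each subcomplex, those past 2-fold in 1 genotype alone or of opposite signs, and 4 highest and 2 lowest of the further kinetochore genes; other members are given by differences. The array values of Bub1b and the values of Flt3, Cd34, Procr, Klrb1c and Hprt were chosen after they were seen. Alternatives were quantile normalization, median centring, other floors, averaged probe sets, 1.5-fold and 3-fold sizes, other limma settings and left-out arrays; counts in 1 genotype alone were added after seeing the data. Figures were drawn with matplotlib 3.10.9.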

Additional observations from a re-analysis of the deposited data

Results flagged for a closer look

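Cenpt had 5FU differences of opposite sign in the genotypes, 0.23 in AMKO and -0.05 in Ctrl, and so did Cenpx, at 0.22 in AMKO and -0.37 in Ctrl. Among the marker lists, the median of 3 T cell genes was -0.05 in AMKO and 0.70 in Ctrl, but all 3 lay under the floor on every array other than Ctrl 5FU, where 1 of 3 did, so this difference compares values mostly not above the floor. With 1 array per group these differences between genotypes were not tested.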

How the results depend on the processing

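The counts of members at least 2-fold higher after 5FU stayed within 1.5 times the values given under quantile normalization, median centring, other floors, averaged probe sets and a 1.5-fold size, with 24 to 32 in AMKO and 22 to 30 in Ctrl. At 3-fold they were 10 in AMKO, 7 in Ctrl and 4 in both. Shares of all genes at 1.5-fold and 3-fold are not given, so members are set against all genes at 2-fold alone. Centring would add 0.11 to each AMKO difference and 0.04 to each Ctrl difference. Quantile normalization gave AMKO medians of 1.13 for the centromere network, 1.02 for CENP-A and its loading and 1.31 for the passenger complex. A floor at the 75th percentile (7.32) left Nsl1 alone in the MIS12 group, with 1.23 in AMKO and 1.18 in Ctrl. When probe sets were averaged, Ska2 differed by 0.45 in AMKO and 0.26 in Ctrl.

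The limma call was the unstable result. Adjusted p passed 0.05 for 0 members and 0 genes as reported, without a trend, without a floor and with averaged probe sets. It passed for 26 members and 947 genes after quantile normalization, 14 and 161 after median centring, 26 and 1293 with the higher floor, and 29 and 1315 with robust estimation. Leaving out each array in turn, with treatment alone in the model, gave 0 to 13 members and 0 to 461 genes, the highest values without the AMKO 5FU array and 0 without the Ctrl 5FU array. Each of these left-out fits leaves only 1 array either after 5FU or at Basal. Their counts are listed to show the spread, and nothing is concluded from them. The cause of the differences between settings was not tested. Counting AMKO alone gave 26 members and Ctrl alone 22, against 21 in both. No paired analysis was possible because each group has 1 array and the labels number no replicates; the additive fit matches arrays by genotype alone.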
